A study of Homo sapiens with 18 samples.

Results

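DNA:RNA hybrids were mapped across 9 human genes that span common fragile sites, LRP1B, FHIT, PTPRG, NAALADL2, IMMP2L, CSMD1, DLG2, WWOX and MACROD2. The genes come from a list of names whose rule uses no measured value, although the list was drawn up with earlier results of these data known. A called window was counted for a gene when its midpoint lay inside the span of that gene in the hg38 GENCODE release 44 annotation. These 9 are among 322 protein-coding genes of at least 500 kb, and among 19970 protein-coding genes in all. Together they cover 13.8 Mb and held 123 to 387 of the 91894 to 169126 DRIP–seq windows of a list. All data came from MCF10A, a nontumorigenic line of human breast epithelial cells. DRIP–seq, in which the S9.6 antibody pulls down DNA:RNA hybrids, was done in A3B KO cells treated with DMSO, with PMA for 2 h and with PMA for 6 h, and in WT cells treated in the same 3 ways. PMA is a phorbol ester that activates protein kinase C, DMSO is its solvent, and A3B is the DNA cytosine deaminase APOBEC3B. The KO was made with a guide RNA that targets both APOBEC3A and APOBEC3B. Anti-GFP ChIP–seq was done in MCF10A-TREx-A3B-eGFP cells, in which doxycycline (dox) switches on eGFP-tagged A3B from a transgene, with dox and PMA for 2 h, with dox and DMSO, and without dox with DMSO.

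Each condition was represented by 1 library, made after several immunoprecipitations had been pooled, so that no difference below has a replicate check and no test across libraries was made. Each of the 9 lists held 500-bp windows around summits that the authors called against the input of the same cells. Intervals given below are 95% intervals for counting error only, and they are too narrow where neighbouring windows come from 1 peak. The read depth of the libraries was unknown. No DRIP–seq library was treated with RNase H, which the paper used in DRIP–qPCR at other genes to check the signal. Whether the windows of the 9 genes are sensitive to RNase H was therefore not tested. The median pileup (fragments stacked at a summit) over all windows was 20, 22 and 30 in the A3B KO lists and 21, 22 and 29 in the WT lists (DMSO, PMA 2 h and PMA 6 h), so the PMA 6 h lists were longer and also had deeper pileups. Of 8 genes that mark basal breast epithelium, 4 to 6 had a DRIP window within 2 kb of their start in each list, against 1 or 2 of 8 genes that mark neurons, glia, liver or blood.

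Common fragile sites are regions that form gaps and breaks on metaphase chromosomes when replication is slowed. Many lie in very long genes that are replicated late and hold few origins of replication, so that a single round of transcription can last into the time when the same DNA is being copied. DNA:RNA hybrids, which form when RNA pairs back with its template behind the polymerase (R-loops), have been studied as one way in which transcription and replication get in each other's way there. FHIT spans FRA3B and WWOX spans FRA16D, both among the sites that break most often in human lymphocytes.

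The start of WWOX was the only place in the 9 genes called in both assays, and its sequence is shown for that reason. Its ChIP call came from the cells without dox and was absent from both lists with dox. The RefSeq promoter (GRCh38.p14, chr16:78099404-78099703, plus strand) is printed with each run of GGG or longer in capitals. It is 69% GC, has 5 such runs and holds no run of 12 A or 12 T.
WWOX promoter: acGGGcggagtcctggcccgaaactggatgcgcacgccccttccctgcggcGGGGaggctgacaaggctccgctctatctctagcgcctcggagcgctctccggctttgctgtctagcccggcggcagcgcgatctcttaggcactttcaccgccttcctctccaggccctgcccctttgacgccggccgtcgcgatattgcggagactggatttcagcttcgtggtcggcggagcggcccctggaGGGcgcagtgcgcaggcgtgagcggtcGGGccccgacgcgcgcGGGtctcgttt

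Of 35116 RefSeq promoters of this length, 96.7% held GGG on 1 strand or the other, and 1.96% held a run of at least 12 A or 12 T.

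WWOX, which encodes a WW domain oxidoreductase known as a tumour suppressor, had the most DRIP windows of the 9 genes. Its span (chr16:78099400-79212667, plus strand, 1.11 Mb) held 36, 52 and 61 windows in A3B KO cells (DMSO, PMA 2 h, PMA 6 h) and 28, 37 and 70 windows in WT cells. Per Mb this was 32.3, 46.7 and 54.8 windows in A3B KO cells and 25.2, 33.2 and 62.9 in WT cells. WWOX stood between place 15 and place 38 of the 322 long genes in every DRIP list. PTPRG, a receptor-type tyrosine phosphatase, was the other gene of high density. Across 0.736 Mb (chr3:61561569-62297609, plus strand) it held 26, 30 and 43 windows in A3B KO cells and 15, 23 and 40 in WT cells. That was 35.3, 40.8 and 58.4 windows per Mb in A3B KO cells and 20.4, 31.2 and 54.3 in WT cells, between place 16 and place 48 of 322. The interval of the WT DMSO value of PTPRG, 11.4 to 33.6 windows per Mb, overlapped that of WWOX, 16.7 to 36.4, so the order of these 2 genes was not set by the counts.

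LRP1B, an endocytic receptor of the LDL receptor family, and NAALADL2, a relative of the glutamate carboxypeptidases, lay at the other end. LRP1B (chr2:140231423-142131016, minus strand, 1.90 Mb) held 11, 14 and 26 windows in A3B KO cells and 10, 18 and 36 in WT cells. Its 5.79, 7.37 and 13.7 windows per Mb in A3B KO cells and 5.26, 9.48 and 19.0 in WT cells put it between place 227 and place 287 of 322. NAALADL2 (chr3:174438573-175810548, plus strand, 1.37 Mb) held 9, 4 and 35 windows in A3B KO cells and 5, 10 and 23 in WT cells. Its density was the least steady of the set, with 6.56, 2.92 and 25.5 windows per Mb in A3B KO cells and 3.64, 7.29 and 16.8 in WT cells. The place of NAALADL2 among the long genes ran from 151 in A3B KO cells after PMA 6 h to 317 in the same cells after PMA 2 h. The NAALADL2 counts also depended on the gene span. Over its longest coding transcript in place of the gene record they were 2, 1 and 20 in A3B KO cells and 3, 5 and 10 in WT cells, while the counts of the other 8 genes were the same for both spans.

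The other 5 genes had densities between LRP1B and the high pair in every list but WT cells after PMA 2 h, where IMMP2L was under LRP1B. IMMP2L, a subunit of the inner mitochondrial membrane peptidase (chr7:110662644-111562517, minus strand, 0.900 Mb), held 13, 10 and 21 windows in A3B KO cells and 8, 8 and 20 in WT cells. DLG2, a scaffold protein of synapses (chr11:83455012-85628335, minus strand, 2.17 Mb), held 23, 39 and 48 windows in A3B KO cells and 17, 31 and 58 in WT cells. MACROD2, an enzyme that removes ADP-ribose from proteins (chr20:13995369-16053197, plus strand, 2.06 Mb), held 16, 18 and 40 windows in A3B KO cells and 16, 31 and 44 in WT cells. All 3 therefore had their highest count after PMA 6 h in both lines. CSMD1, a membrane protein with CUB and sushi domains that restrains complement (chr8:2935353-4994972, minus strand, 2.06 Mb), held 13, 31 and 38 windows in A3B KO cells and 14, 21 and 57 in WT cells. FHIT, a hydrolase of dinucleoside polyphosphates and a tumour suppressor (chr3:59747277-61251459, minus strand, 1.504 Mb), held 11, 21 and 34 windows in A3B KO cells and 10, 18 and 39 in WT cells. In WT cells treated with DMSO these 5 genes had 6.65 to 8.89 windows per Mb, and each of their intervals overlapped all the others.

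**Figure D1:**
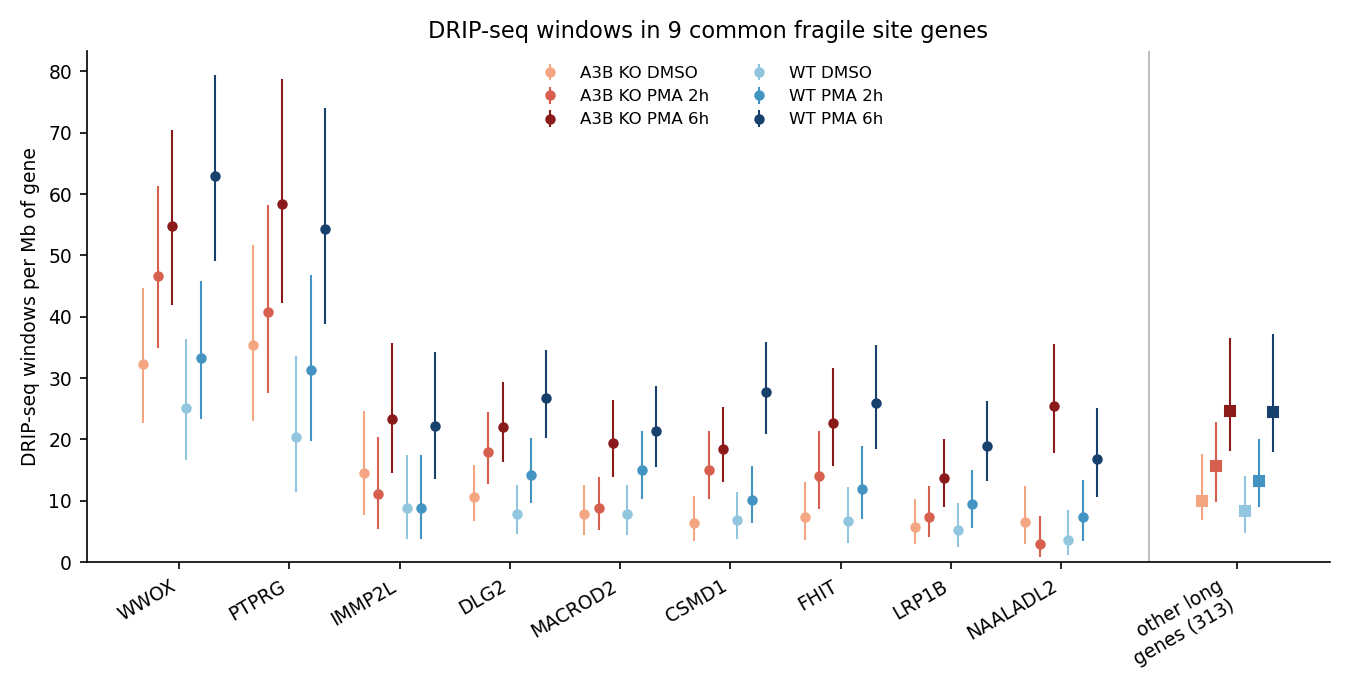
DRIP windows per Mb (y axis) in each of the 9 genes (x axis), with A3B KO lists (red) left of WT lists (blue) and DMSO, PMA 2 h and PMA 6 h in that order. Bars on the points are 95% Poisson intervals for counting error only, and the squares at the right are medians of the other 313 long genes with bars for their middle quartiles. WWOX and PTPRG lie between 20.4 and 62.9 windows per Mb, and each of the other 7 genes stays at or below 27.7.

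All 9 genes had at least 1 window in each of the 6 DRIP lists, as did 97.8% of the 322 long genes. Pooled over the 9 genes there were 158, 219 and 346 windows in A3B KO cells and 123, 197 and 387 in WT cells. The pooled density was 11.4, 15.9 and 25.0 windows per Mb in A3B KO cells and 8.90, 14.3 and 28.0 in WT cells. The other 313 long genes had 12.96, 17.9 and 29.4 in A3B KO cells and 10.4, 16.3 and 29.4 in WT cells. They include genes linked to other fragile sites, so this is not a comparison with genes free of such sites. Set over the other long genes, the fragile site genes were at ratios of 0.883, 0.885 and 0.852 in A3B KO cells and 0.855, 0.876 and 0.953 in WT cells. The median gene was lower than the median of the other long genes in 5 lists and higher only in WT cells after PMA 6 h, 25.9 against 24.4 windows per Mb. The number of the 9 genes below the median of the other long genes was 5, 6 and 6 in the A3B KO lists and 6, 5 and 4 in the WT lists.

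The low density went with gene length, and the order of the sets turned with it. In A3B KO cells treated with DMSO, protein-coding genes of at least 1 Mb held 10.4 windows per Mb, those of 500 kb to 1 Mb held 14.3 and those under 10 kb held 181. Against the 64 other genes of at least 1 Mb, the ratio of the 9 genes was 1.09, 1.09 and 1.00 in A3B KO cells and 1.07, 1.08 and 1.102 in WT cells. PTPRG and IMMP2L are shorter than 1 Mb, and PTPRG was one of the pair of highest density. With both left out as well, the ratio was above 1 in 3 lists, at 1.01 in A3B KO cells after PMA 2 h and at 1.03 and 1.06 in WT cells after PMA 2 h and 6 h. A difference between the 9 genes and other genes of their length was not resolved by these single libraries.

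Each gene had neighbours of like density that are not among the 9. Likeness was taken as the smallest summed difference in log2 windows per Mb over the 6 DRIP lists, with 0.5 added to each value. Closest to FHIT was KCNQ5, at a summed difference of 0.51, with 6.93, 15.6 and 22.5 windows per Mb in A3B KO cells and 6.93, 12.1 and 22.5 in WT cells. WWOX was closest to NFIA at 0.77, PTPRG to THSD4 at 0.75, LRP1B to DLGAP2 at 0.73 and CSMD1 to TENM4 at 0.83. DLG2 was closest to TBC1D5 at 0.78, IMMP2L to MAPK10 at 0.76 and MACROD2 to PDE4D at 1.31. PDE4D is itself in the second list of fragile site genes read below. NAALADL2 had the least similar nearest gene, GRIK2 at 2.13.

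A second list of 20 long genes linked to other fragile sites was also read. All but THSD7A, at 0.462 Mb, are at least 500 kb long and so are among the other 313 long genes above. It held a median of 10.7, 15.2 and 24.4 windows per Mb in A3B KO cells and 7.11, 13.2 and 23.5 in WT cells. In WT cells treated with DMSO AUTS2 had 17.6 and RORA 17.5 windows per Mb, below WWOX and PTPRG in the same list. The lowest were CCSER1 at 1.35, NBEA at 1.37 and THSD7A at 2.17, below each of the 9 genes there.

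The comparison of A3B KO with WT cells asks whether loss of A3B goes with more hybrids. With DMSO, 7 of the 9 genes had more windows in A3B KO cells, CSMD1 had fewer, at 13 against 14, and MACROD2 had 16 in each. Of the other long genes with at least 10 windows over both lists, 63.6% had more in A3B KO cells. The largest ratios of A3B KO over WT counts were NAALADL2 at 1.80, with 9 against 5 windows, PTPRG at 1.73, with 26 against 15, and IMMP2L at 1.63, with 13 against 8. Over the longest coding transcript NAALADL2 had 2 windows in A3B KO cells against 3 in WT cells, so its direction turned. None of the 9 reached 2-fold in either direction. Among the 234 long genes with enough windows (at least 10 over both lists), 17.1% were at least 2-fold higher and 3.42% at least 2-fold lower. The pooled ratio was 1.28 for the 9 genes and 1.22 for the other long genes, and the A3B KO list as a whole was 1.07 times as long. For every one of the 9 genes the interval of the ratio held 1, as with PTPRG at 0.885 to 3.52.

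After PMA 2 h the genes were mixed. NAALADL2 was the 1 gene past 2-fold, with 4 windows in A3B KO cells against 10 in WT cells, a ratio of 0.40 with an interval of 0.0916 to 1.39. Over its longest coding transcript it had 1 against 5, too few to be compared by the minimum of 10 windows. Of 286 long genes, 1.05% were at least 2-fold lower and 3.85% at least 2-fold higher, and none of the 9 was among the higher. MACROD2 had 18 windows in A3B KO cells against 31 in WT cells (0.581), and LRP1B had 14 against 18 (0.778). The other 6 had more in A3B KO cells, from 21 against 18 for FHIT to 31 against 21 for CSMD1, the highest ratio at 1.48. More windows in A3B KO cells were also found in 58.5% of the other long genes compared. Pooled, the ratio was 1.11 for the 9 genes and 1.1 for the other long genes.

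After PMA 6 h, 6 of the 9 genes had fewer windows in A3B KO cells than in WT cells. Among the other long genes compared, 48.1% had more windows in A3B KO cells. CSMD1 had 38 in A3B KO cells against 57 in WT cells, a ratio of 0.667 with an interval of 0.430 to 1.02. LRP1B had 26 against 36 (0.722), DLG2 had 48 against 58 (0.828), and FHIT, WWOX and MACROD2 were at ratios of 0.872, 0.871 and 0.909. NAALADL2 stood on the other side, with 35 windows in A3B KO cells against 23 in WT cells (1.52), together with PTPRG at 1.08 and IMMP2L at 1.05. Over the longest coding transcript NAALADL2 had 20 against 10, which reaches 2-fold. With the gene record as span, no gene of the 9 was 2-fold higher or lower, against 1.25% and 0.940% of 319 long genes. The pooled ratio was 0.894 for the 9 genes and 1.00 for the other long genes. All 9 intervals held 1, so the counting error of a single gene was as large as each of these differences.

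**Figure D2:**
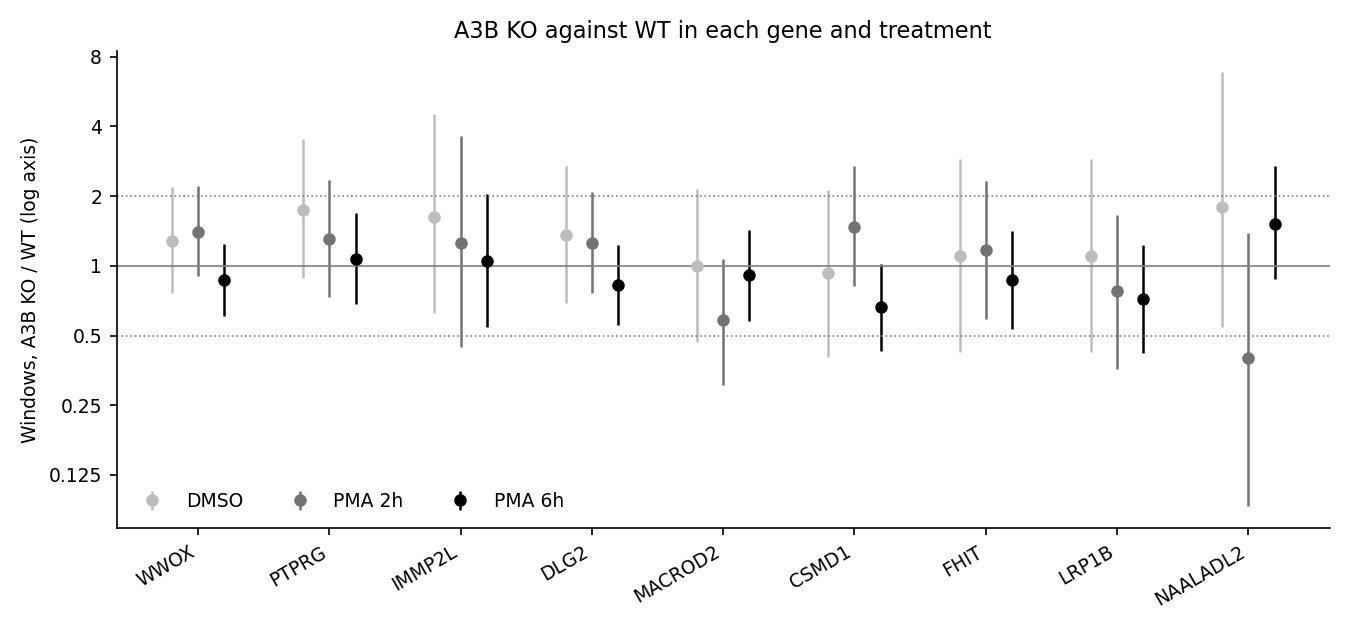
Windows in A3B KO cells divided by windows in WT cells (y axis, log scale) for the 9 genes (x axis) with DMSO and after PMA for 2 h and 6 h. Bars are exact 95% intervals for counting error, the solid line at 1 marks equal counts, and the dotted lines mark 2-fold. Every interval crosses 1, and the points run from 0.40 for NAALADL2 after PMA 2 h to 1.80 for the same gene with DMSO.

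The comparison of PMA with DMSO asks how the hybrids follow activation of the cells, and in each line the 2 h and 6 h comparisons share 1 DMSO list. After 2 h in A3B KO cells, CSMD1 had 31 windows against 13 with DMSO, a ratio of 2.38 with an interval of 1.21 to 4.97. It was the 1 gene of the 9 at least 2-fold higher, where 21.1% of 279 long genes were. NAALADL2 was the 1 gene at least 2-fold lower, with 4 windows against 9 (0.444), where 1.08% of long genes were. IMMP2L had 10 against 13, and the other 6 had more windows after PMA. With CSMD1 that makes 7 of the 9 higher, where 81.1% of the other long genes compared were. In WT cells after 2 h, NAALADL2 was the 1 gene at least 2-fold higher, with 10 windows after PMA against 5 with DMSO, an interval of 0.623 to 7.46, where 27% of 259 long genes were at least 2-fold higher and 0.386% at least 2-fold lower. Over its longest coding transcript NAALADL2 had 1 window after PMA against 2 with DMSO in A3B KO cells and 5 against 3 in WT cells, too few to be compared. None of the 9 was 2-fold lower in WT cells, and IMMP2L had 8 windows in both. The other 8 genes had more windows after PMA in WT cells, as did 87.2% of the other long genes compared. The pooled ratio at 2 h was 1.39 in A3B KO cells and 1.60 in WT cells, against 1.38 and 1.53 for the other long genes and 1.22 and 1.22 for the whole lists.

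After PMA 6 h all 9 genes had more windows than with DMSO in both lines. So did 98.4% of the other long genes compared in A3B KO cells and 100% in WT cells. In A3B KO cells 6 of the 9 were at least 2-fold higher, where 71.6% of 313 long genes were. The largest ratios were NAALADL2 at 3.89, FHIT at 3.09 with 34 windows against 11, and CSMD1 at 2.92. WWOX, PTPRG and IMMP2L stayed under 2-fold, at 1.69, 1.65 and 1.62. In WT cells all 9 were at least 2-fold higher, where 86.9% of 298 long genes were. NAALADL2 had 23 windows after PMA against 5 with DMSO (4.6, interval 1.71 to 15.5), CSMD1 57 against 14 (4.07, interval 2.24 to 7.91) and FHIT 39 against 10 (3.90, interval 1.91 to 8.76). Over its longest coding transcript NAALADL2 had 20 windows after PMA against 2 with DMSO in A3B KO cells and 10 against 3 in WT cells. None of the long genes was 2-fold lower in either line, 0% of 313 and of 298. Pooled, the 9 genes were at 2.19 in A3B KO cells and 3.15 in WT cells, against 2.27 and 2.81 for the other long genes.

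Much of this growth was also seen in the lists as a whole, which were 1.72 times as long in A3B KO cells and 1.81 times as long in WT cells. Taken as a share of its list, WWOX was at 0.986 of its DMSO value in A3B KO cells and at 1.38 in WT cells after PMA 6 h. On that scale 1 gene of the 9 was at least 2-fold higher in A3B KO cells, NAALADL2 at 2.26, and 3 were in WT cells, NAALADL2 at 2.55, CSMD1 at 2.26 and FHIT at 2.16. With all lists shortened to the length of the shortest by their −log10 q-values, 3 of the 9 were 2-fold higher in A3B KO cells and 4 in WT cells. The share of all long genes past 2-fold was not counted on either of these scales. The genes named are therefore not shown to stand out among long genes. The deeper pileups of the PMA 6 h lists moved with the counts, and their part in the ratios was not tested. In the second list of 20 fragile site genes the plain counts put 13 of 19 compared genes at least 2-fold higher in A3B KO cells and 17 of 19 in WT cells after PMA 6 h.

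Windows lay throughout the genes, with more in the first 10% of the span than an even spread gives. Of all windows of the 9 genes, the first 10% of the gene held 17.1%, 14.6% and 15.3% in A3B KO cells and 20.3%, 11.7% and 16.02% in WT cells, where an even spread gives 10%. The WT PMA 2 h value had a Wilson interval of 7.91% to 16.9%, which holds 10%. In the other long genes it held 12.5%, 11.2% and 11.5% in A3B KO cells and 12.7%, 11.8% and 11.4% in WT cells. The Wilson interval for the 9 genes with DMSO was 12.02% to 23.7% in A3B KO cells and 14.2% to 28.3% in WT cells. The first 50% of the gene held 48.7%, 57.1% and 56.9% in A3B KO cells and 59.3%, 53.8% and 55.6% in WT cells. For the other long genes this was 48.6%, 48.6% and 49.4% in A3B KO cells and 49.3%, 48.4% and 49.3% in WT cells. The Wilson interval of the 9 genes held 50% in A3B KO cells with DMSO, at 41.1% to 56.5%. It also held 50% in WT cells after PMA 2 h, at 46.8% to 60.6%. In the remaining lists it began at 50.5% to 51.7%.

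The genes differed in where their windows gathered. MACROD2 had 4, 3 and 11 windows in its first 10% in A3B KO cells and 5, 5 and 9 in WT cells, and IMMP2L had 5, 3 and 6 in A3B KO cells and 4, 1 and 7 in WT cells. LRP1B had none there in 4 lists and 1 in each PMA 6 h list, so its windows began further in. In DLG2 the first 10% held 3, 6 and 8 windows in A3B KO cells and 4, 6 and 11 in WT cells.

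**Figure D3:**
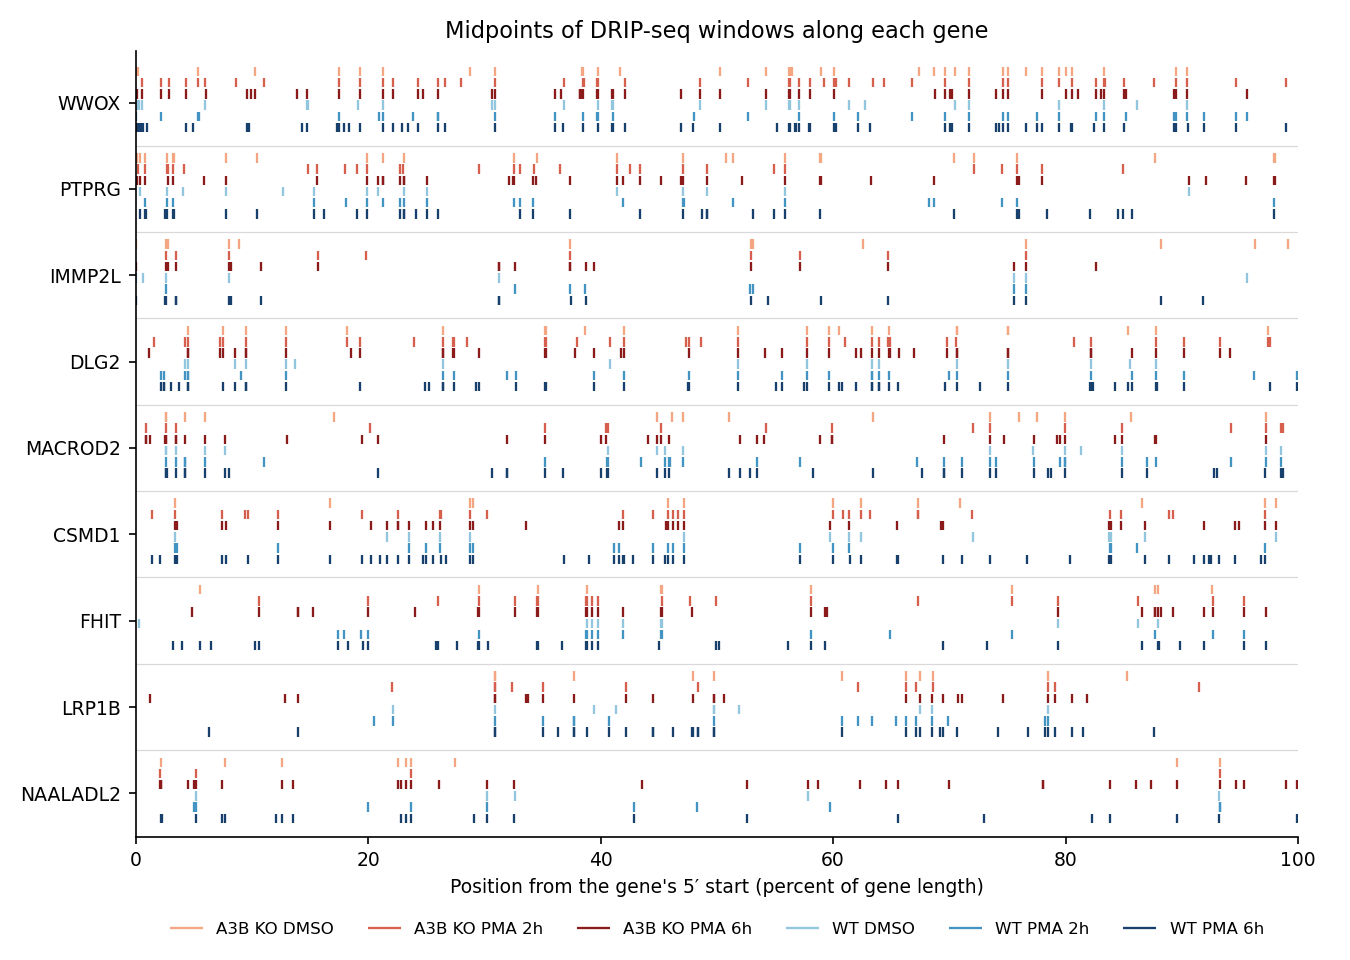
Position of every DRIP window along its gene, in percent of the span from the start (0) to the end (100) on the x axis, with a band per gene, in which the A3B KO lists are above the WT lists. Each mark is 1 window. WWOX is marked along its whole length, and LRP1B has at most 1 mark in its first 10% in any list.

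Few windows touched an exon. The share was 1.81% to 3.25% for exons of the representative transcript, and the exon share of the spans was not set beside it. Some NAALADL2 windows lay outside that transcript altogether, and so in none of its introns. Of all windows, 4.39% to 7.61% had their midpoint in another annotated gene on either strand. DRIP–seq without strand cannot tell such a gene apart from the fragile site gene. In WWOX, intron 8 makes up 70.0% of the gene and held 27, 36 and 43 windows in A3B KO cells and 19, 27 and 46 in WT cells. Those were 65.7% to 75% of the windows of the gene, close to the length of the intron. In FHIT, intron 4 makes up 18.9% of the gene and held 5, 9 and 12 windows in A3B KO cells and 6, 8 and 11 in WT cells, 28.2% to 60% of all FHIT windows. Intron 5 of FHIT, at 34.8% of the gene, held 2, 6 and 5 in A3B KO cells and 1, 3 and 8 in WT cells. IMMP2L intron 4, 8.53% of the gene, had no window in any list, while intron 3, at 58.2%, held 5, 6 and 12 in A3B KO cells and 1, 5 and 9 in WT cells. These shares of single introns rest on small counts.

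At gene starts, 3 of the 9 genes had DRIP windows within 2 kb in at least 1 list. WWOX had one in 2 A3B KO lists (DMSO and PMA 6 h) and in all 3 WT lists, IMMP2L in the DMSO and PMA 6 h lists of both lines, and PTPRG in all 3 A3B KO lists and in WT cells after PMA 6 h. At IMMP2L the window lay 646 to 717 bp inside the gene, with a fold enrichment over background of 6.08 and 2.95 in A3B KO cells (DMSO and PMA 6 h) and 10.2 and 4.46 in WT cells. The closest WWOX window lay 509 bp inside the gene in A3B KO cells with DMSO, at a fold of 3.67, and 457 to 541 bp inside in WT cells, at folds of 5.07, 3.50 and 3.97. FHIT, MACROD2, LRP1B, CSMD1, DLG2 and NAALADL2 had no window near their annotated start in any list. In a given DRIP list 1 to 3 of the 9 genes had a window there, 11.1% to 33.3%. Of all 322 long genes 10.6% to 17.1% had a window there in a given DRIP list, and of all protein-coding genes 31.9% to 38.5%.

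Most places were called in few lists. Windows of the 9 genes that overlapped across the DRIP lists merged into 621 loci. Of these, 289 were in 1 list (46.5%), 141 in 2, 69 in 3, 50 in 4, 39 in 5 and 33 in all 6 (5.31%). Among the other long genes 45.4% of 11914 loci were in 1 list and 6.33% in all 6, and over the whole series 38.4% of 250966 loci were in 1 list and 11.6% in all 6. Of the 621 loci, 166 were called only in A3B KO cells, 173 only in WT cells and 282 in both. A further count found 225 of them only after PMA 6 h, in 1 line or both, and the PMA 6 h lists were also the longest. Neither split was counted for the other long genes or the whole series. These numbers are therefore not shown to be particular to the 9 genes.

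Each of the 9 genes had at least 1 locus in all 6 lists, at counts too small to rank the genes. DLG2 had 8 of its 85 loci in all 6, WWOX 6 of 119, PTPRG 5 of 72 and MACROD2 4 of 77. LRP1B had 3 of 55, CSMD1 3 of 77, IMMP2L 2 of 31, FHIT 1 of 61 and NAALADL2 1 of 44. Over the 9 genes together it was 33 of 621. The FHIT locus lies in intron 4, with folds of 4.31, 6.89 and 8.07 in A3B KO cells and 7.92, 8.97 and 8.04 in WT cells. In WWOX the strongest of the 6 lies in intron 8, with folds of 7.61, 7.95 and 9.54 in A3B KO cells and 5.94, 8.86 and 9.10 in WT cells. It also lies in an annotated long noncoding RNA on the same strand. In DLG2 the leading locus lies in intron 7, with folds of 4.06, 12.7 and 6.88 in A3B KO cells and 7.42, 8.46 and 8.68 in WT cells. In PTPRG it lies in intron 2, with folds of 7.35, 8.99 and 9.94 in A3B KO cells and 6.85, 4.87 and 10.8 in WT cells.

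**Figure D4:**
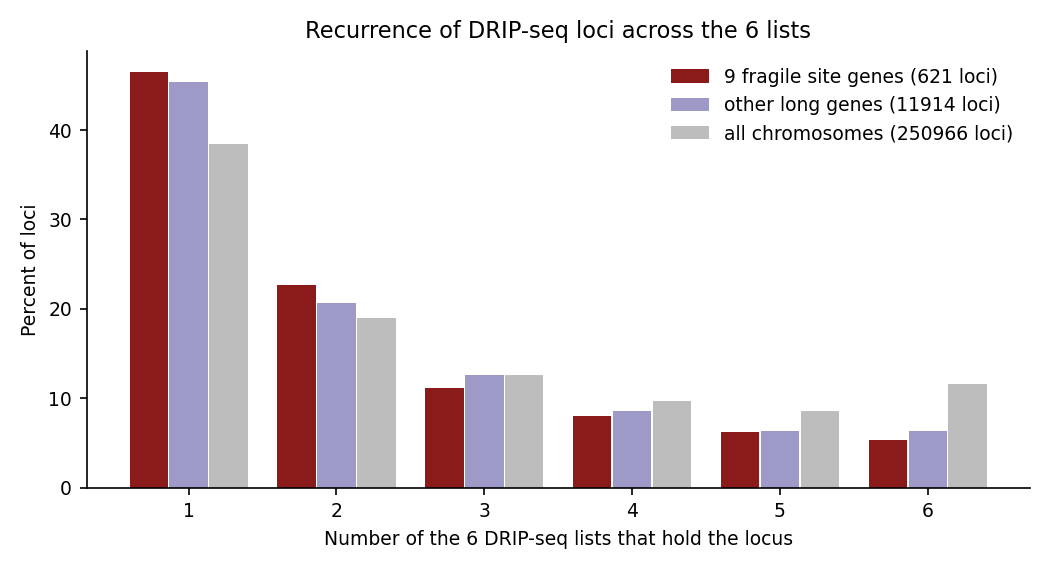
Number of DRIP lists in which a locus was called (x axis, 1 to 6) against the share of loci in percent (y axis), for the 9 genes (621 loci), the other long genes (11914) and all chromosomes (250966). Of the loci of the 9 genes 46.5% are in 1 list and 5.31% in all 6.

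Between the lines, the share of windows in common was below that of the whole series, by least for A3B KO cells after PMA 6 h. With DMSO, 38.0% of A3B KO windows overlapped a WT window and 48.8% of WT windows overlapped an A3B KO window, against 56.1% and 59.9% over the whole series. After PMA 2 h the shares in the 9 genes were 45.7% and 52.8%, against 59.1% and 63.8% over the whole series. After PMA 6 h they were 61.0% and 55.3%, against 64.7% and 68.3%. For the A3B KO windows after PMA 6 h the whole series lay inside the Wilson interval of the 9 genes, 55.7% to 66.0%. The other long genes had 40.2% and 48.9% with DMSO, 50.7% and 55.9% after 2 h, and 59.8% and 61.0% after 6 h, and their values lay within the Wilson intervals of the 9 genes except for the WT windows after PMA 6 h, where the interval was 50.3% to 60.2%.

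A single window stood far above the rest. This locus in LRP1B intron 2, called in all 6 lists, had folds of 56.8, 80.0 and 38.6 in A3B KO cells and 49.0, 61.1 and 59.1 in WT cells. Its pileup was 223, 320 and 240 fragments in A3B KO cells and 218, 300 and 385 in WT cells. Only 34, 10 and 88 windows of the A3B KO lists and 53, 32 and 28 of the WT lists had a higher fold. The next highest window in the 9 genes had a fold of 9.63, 12.7 and 12.8 in A3B KO cells and 12.9, 12.8 and 16.7 in WT cells. In the other 313 long genes the highest fold of any window was 16.3, 25.98 and 16.6 in A3B KO cells and 17.1, 19.9 and 42.3 in WT cells, so the LRP1B window was above every other window in a long gene in all 6 lists. It lies in a gene that was otherwise low in windows. The locus holds an unbroken run of 166 purines (A or G), made up of 93 A and 73 G. It lacks the long run of A or T, described below, that most windows of the 9 genes hold. Whether the purine run bears on the fold of this locus was not tested. How far the reads of the locus can be placed uniquely was not tested either.

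Apart from that window, the windows of the 9 genes were slightly stronger than the typical window of their lists. Their median fold was 4.56, 5.57 and 5.32 in A3B KO cells and 4.84, 5.27 and 5.71 in WT cells, against 4.31, 5.01 and 4.64 and 4.32, 4.64 and 5.26 over the whole lists. Among the other long genes it was 4.40, 5.30 and 4.95 in A3B KO cells and 4.45, 4.87 and 5.53 in WT cells.

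The windows shared a sequence feature that the choice of genes did not use. A run of at least 12 A or 12 T was present in 77.2%, 82.6% and 80.9% of the windows of the 9 genes in A3B KO cells and in 76.4%, 83.2% and 84.0% in WT cells. Of the 27625 consecutive 500-bp tiles that make up the 9 genes, 9.32% held such a run. The feature was not limited to these genes, since it was in 73.1% to 79.4% of windows in the other long genes, where 8.63% of tiles held it, and in 62.7% to 72.9% of windows in the whole lists. Gene by gene, the share over all lists ran from 59 of 80 windows in IMMP2L to 157 of 174 in CSMD1, and the tiles ran from 7.78% in IMMP2L to 15.5% in WWOX. WWOX and PTPRG, the genes of highest density, also had the largest shares of tiles with a run, 15.5% and 13.2%, against 7.78% to 9.62% in the other 7. Whether the runs account for the densities was not tested.

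The runs lay on 1 side of the windows. Of 1430 windows over the 6 lists (a place called in several lists counts once per list), 1168 had a run with its middle within 250 bp of the midpoint of the window. In 1070 of these, 91.6%, the run lay 5′ of the midpoint when read on the strand that carries the A, and the median distance, counted as positive on that side, was 115.5 bp over the 1168. For tiles with a run that close, the share was 48.5%. Read along the gene strand, an A run reached into the stretch 100 to 200 bp before the midpoint in 27.3% of windows, and a T run into the stretch 100 to 200 bp after it in 32.8%. The share of windows with the run on the 5′ side was 87.7%, 91.8% and 92.2% in A3B KO cells and 95.7%, 91.5% and 91.4% in WT cells. Relative to the gene, runs of A were in 567 windows and runs of T in 653, so the runs fell on both strands of the genes.

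Longer runs of purines (A or G) or of pyrimidines (C or T) were also frequent. Such a run may be of A alone or T alone, so this feature is not separate from the runs above. An unbroken run of at least 30 purines or 30 pyrimidines was in 36.1%, 36.5% and 36.1% of windows in A3B KO cells and in 35.8%, 40.6% and 35.9% in WT cells, against 2.71% of tiles. In the other long genes it was in 35.1% to 41.1% of windows. Sequence that recurs within the 9 genes was common too. Words of 16 letters found at least 20 times in the 9 spans, on either strand, made up a median of 10.7% to 13.8% of a window and 0% of a tile.

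The windows were also richer in G and C than the tiles. Median GC was 42.6%, 43.0% and 41.2% in A3B KO cells and 43.4%, 42.4% and 42.6% in WT cells, against 37.4% in tiles. The mean number of CpG per window was 6.04 to 7.16, against 3.71 in tiles, and the mean number of GGG on either strand was 10.0 to 11.3, against 7.80. A GGG was present in 99.4% of tiles. TCA and TCT, the trinucleotides in which A3B prefers to deaminate the middle C, did not stand out, with a mean of 39.7 to 40.5 on both strands per window against 40.6 per tile, and all tiles held at least 1.

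A3B-eGFP was next read over the same genes, which shows where the enzyme itself was called. No window of the dox lists lay in any of the 9 genes, 0 of 7122 with PMA 2 h and 0 of 5945 with DMSO, where 9.01% of the 322 long genes had one in either list. A count of 0 over 13.8 Mb allows up to 0.217 windows per Mb by the limit of 3 windows, and up to 0.267 by the exact 95% Poisson bound. Both are above the density of the other long genes, 0.117 with PMA 2 h and 0.0936 with DMSO. At this number of windows a difference from other long genes was not detectable. Without dox, 1 window of 4040 lay in the 9 genes, where 2.17% of long genes had one. It covers the start of WWOX (chr16:78099318-78099817), with a pileup of 79, a fold of 2.196 and a −log10 q-value of 6.99. Only 2.28% of the windows in the list without dox had a lower fold. This window overlapped DRIP windows in A3B KO cells with DMSO and in all 3 WT lists, at the promoter printed above. It was called in the cells without dox and in neither list with dox. Signal below the calling threshold was not read, so whether the signal at this place changes with dox was not tested.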

How the data were processed

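MCF10A DRIP–seq and A3B-eGFP ChIP–seq were analysed from 9 deposited peak lists, 1 per immunoprecipitation. The other 9 of the 18 samples are inputs and were not used on their own. Per the methods and the processing notes of the submitters, the authors trimmed reads with Cutadapt 1.13, aligned them to hg38 with STAR 2.6.1d, filtered pairs (SAMtools 1.3.1), duplicates (Picard) and excluded regions (bedtools 2.29.2), used deepTools 2.5.0.1, and called summits with MACS2 in paired mode at a q-value threshold of 0.01 against each input. The MACS2 version is 2.2.6 in the processing notes, and the methods name another. The deposited pileup signal, fold enrichment (a ratio over background) and −log10 q-value of each window were made by the authors and used as given. The lists do not state whether starts count from 0 or 1, which would shift a window by 1 bp.

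Windows were assigned to GENCODE release 44 spans by their midpoint, mitochondrial windows were left out, and windows per Mb, exact Poisson and binomial intervals and Wilson intervals at 95% were computed with Python 3.11.15, numpy 2.4.6, pandas 2.3.3 and scipy 1.17.1. The depth in reads was unknown, so precision rests on the number of windows. Long genes are protein-coding genes of at least 500 kb. A gene was compared between lists when both together held at least 10 windows, and was counted as higher or lower from 2-fold. Sequence features were computed from hg38, and the promoter came from RefSeq, whose table held 7 of the 9 genes. For runs, windows and tiles with unknown bases were left out (82 DRIP windows over the 6 whole lists). The counting and joining of windows were tested on simulated data. All 9 genes are named with values, and each gene's leading loci are those called in the most lists and then of highest mean fold. Genes named as alike have the smallest summed difference, and of the second list genes among the 3 highest and the 3 lowest in WT cells with DMSO are named. Some items that these rules name are not reported here. The rule for the genes uses no measured value, but the genes and lists were chosen with earlier results of these data known. Alternatives tried were a −log10 q-value of at least 5, equal list lengths, counts as a share of the list, 1.5-fold, merged windows, any overlap of 1 bp, the longest coding transcript, and comparison genes of at least 1 Mb.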

Additional observations from a re-analysis of the deposited data

Results flagged for a closer look

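For 6 of the 9 genes the ratio of A3B KO over WT windows lay above 1 and below 1 at different treatment times. The difference between times was not tested because each condition has 1 library. How many of the other long genes cross 1 in this way was not counted, so the 6 are not shown to be unusual. The pooled ratio of the other long genes also fell. It was 1.22 with DMSO, 1.1 after PMA 2 h and lower again after PMA 6 h. FHIT, WWOX and DLG2 were above 1 with DMSO and after PMA 2 h and at 0.872, 0.871 and 0.828 after PMA 6 h. LRP1B was at 1.1 with DMSO, with 11 windows in A3B KO cells against 10 in WT cells, and at 0.722 after PMA 6 h. CSMD1 was at 1.48 after PMA 2 h and at 0.667 after PMA 6 h, with 38 windows in A3B KO cells against 57 in WT cells. NAALADL2 was at 1.80 with DMSO and at 0.40 after PMA 2 h, with 4 windows in A3B KO cells against 10 in WT cells. NAALADL2 was also the 1 gene whose PMA 2 h over DMSO ratio pointed in opposite directions by 2-fold or more, at 0.444 in A3B KO cells and 2.00 in WT cells, which was likewise not tested. Over its longest coding transcript NAALADL2 had 2, 1 and 20 windows in A3B KO cells and 3, 5 and 10 in WT cells (DMSO, PMA 2 h, PMA 6 h). All intervals of these A3B KO over WT ratios hold 1.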

How the results depend on the processing

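Positions along the genes and the A3B-eGFP counts stayed within counting error under every alternative run for them, as did the pooled densities, ratios and gene counts run with merged windows and an overlap of 1 bp. The longest coding transcript was run for the ratio to other long genes, which stayed within its spread, but the NAALADL2 counts fell to 2, 1 and 20 in A3B KO cells and 3, 5 and 10 in WT cells. In what follows values run through DMSO, PMA 2 h and PMA 6 h. At a −log10 q-value of at least 5 the pooled density was 8.11, 12.7 and 21.6 windows per Mb in A3B KO cells and 6.08, 11.2 and 23.9 in WT cells, which follows from the fewer windows kept. With lists of equal length it was 12.7 and 15.996 in A3B KO cells and 11.9 and 16.9 in WT cells after PMA 2 h and 6 h, and the ratio to other long genes was 0.957 in A3B KO cells after PMA 6 h. Against other genes of at least 1 Mb the ratio turned to 1.09, 1.09 and 1.00085 in A3B KO cells and 1.07, 1.08 and 1.102 in WT cells. With PTPRG and IMMP2L left out too, an alternative added after seeing the data, it turned in 3 lists, to 1.01 in A3B KO cells after PMA 2 h and to 1.03 and 1.06 in WT cells after PMA 2 h and 6 h. For the gene counts that follow, the share of all long genes called under the same alternative was not counted. Lowering the threshold to 1.5-fold gave 3 genes higher in A3B KO than WT cells with DMSO, 2 lower after PMA 2 h, and 1 higher and 1 lower after PMA 6 h. For PMA 2 h over DMSO in A3B KO cells, 3 genes were higher at a −log10 q-value of at least 5 (and 0 lower), 3 at 1.5-fold and 0 by share of the list. In WT cells these counts were 5, 7 and 0, and 0 with equal lengths. For PMA 6 h over DMSO, 3 genes in A3B KO cells and 4 in WT cells were higher with equal lengths, and 1 and 3 by share of the list. Beyond these constructions the cause was not tested. No paired analysis was possible because each condition has 1 library and the labels carry no replicate numbers. Single libraries, unknown read depth and counts under 20 windows in many genes limit every comparison of 1 gene.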
